A study of Mus musculus with 4 samples.

Results

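The solute carriers expressed in the testis were described in RNA of whole mouse testis from Piwil1-/- and Piwil1+/- animals. Members were all genes of the RNA-seq table whose symbol starts with Slc and a family number, or with Slco, and whose level reached 1 RPKM or more in either library. RPKM corrects the reads of a gene for its length and for sequencing depth, so levels can be compared between genes. The rule took 155 of the 386 genes with such names, out of 22808 gene identifiers in all, and 41 of 50 families had a member. Of the members, 140 reached 1 RPKM in both libraries, 8 in Piwil1-/- testis alone and 7 in Piwil1+/- testis alone; these 15 had to differ between the libraries to be so placed. Members were thus chosen by their RPKM in the same 2 libraries that are compared below, so levels and genotype ratios are given as a description without a test.

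The Piwil1-/- group carried mutant alleles on both copies of Piwil1 and the Piwil1+/- group on a single copy, so no wild-type library enters the comparison. Both groups were taken at postnatal day 23, with 1 library each, and the labels give neither the nature of the mutation, the strain of these mice nor the number of animals. Piwil1 encodes PIWIL1 (also MIWI), a PIWI protein that binds piRNAs in spermatocytes and round spermatids. Small RNAs bound to PIWIL1 in adult testis were also sequenced in the study and were not used here.

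Solute carriers are membrane proteins that move sugars, acids, amino acids, ions, metals and vitamins across the plasma membrane or into organelles. In the testis they matter because Sertoli cells form a barrier around the meiotic and postmeiotic germ cells and supply them with nutrients such as lactate. Spermatocytes and spermatids take up lactate through monocarboxylate transporters, and sperm motility depends on proton, bicarbonate and sodium transport in the tail. Many families hold a widely used member and a relative that is used mainly by germ cells.

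The RPKM values had been scaled to 100254357 reads in Piwil1-/- testis and to 104014686 reads in Piwil1+/- testis. Piwil1 was listed at 0 in Piwil1-/- testis, against 26.2 RPKM in Piwil1+/- testis, as the labels say. The tissue label held against its markers: Sycp1 of the synaptonemal complex was at 138 and 126 RPKM, and Cyp17a1 of Leydig cells at 50.8 and 63.04 RPKM, in Piwil1-/- and Piwil1+/- testis. Of 8 Sertoli cell markers, 4 reached 1 RPKM, while Sox9 and Amh were under 0.1 RPKM in both libraries. Among 6 Leydig cell markers, 5 reached 1 RPKM, but Insl3 also stayed under 0.1 RPKM in both. Star (3.90 and 3.68 RPKM) and Lhcgr (1.34 and 1.61 RPKM), in the same order of genotypes, were far below Cyp17a1. Of 6 epididymal markers, 5 were listed at 0 in both. In whole testis, fewer cells of a type and less RNA per cell cannot be told apart.

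A single glucose transporter led all carriers by a wide margin. Slc2a3 (chromosome 6), which encodes the high-affinity glucose transporter GLUT3, was at 967 RPKM in Piwil1-/- testis and 946 RPKM in Piwil1+/- testis. It ranked 6 among all gene identifiers in each library and held 38.8% of the members' summed RPKM in Piwil1-/- testis and 37.9% in Piwil1+/- testis. Its ratio of RPKM, Piwil1-/- over Piwil1+/-, was 1.02 with a counting interval of 1.01 to 1.03. Counting intervals are 95% intervals from the whole reads behind the RPKM values and cover counting error only, since a repeat animal was not measured and PCR copies are not independent. Slc2a1, the glucose transporter GLUT1 of most somatic cells, was at 1.13 and 0.904 RPKM in Piwil1-/- and Piwil1+/- testis, so the level of Slc2a3 was 858 and 1048 times that of Slc2a1.

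The next levels belonged mostly to carriers with a germ cell use, and the level of Slc2a3 was 10.7 times the next highest in Piwil1-/- testis and 11.4 times the next highest in Piwil1+/- testis. Slc9c1, the sperm-specific sodium-proton exchanger of the tail, was this second highest member, at 90.6 RPKM in the Piwil1-/- library and 83.02 RPKM in the Piwil1+/- library. Slc9b1, a second sodium-proton exchanger of sperm, was at 78.9 and 82.6 RPKM in the same order. These 2 exchangers stood at nearly equal levels, with Slc9c1 1.15 times Slc9b1 in Piwil1-/- and 1.005 times in Piwil1+/- testis. Slc22a16, a carnitine transporter known from the human testis, was at 75.4 and 75.7 RPKM. Slco6c1, of an organic anion transporter group known in the rat as gonad-specific, was at 53.2 RPKM in Piwil1-/- testis and 54.0 RPKM in Piwil1+/- testis. Together the 10 members of highest mean level held 59.4% of the summed RPKM in Piwil1-/- and 60.02% in Piwil1+/- testis, while the median member was at 4.32 and 4.22 RPKM.

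**Figure D1:**
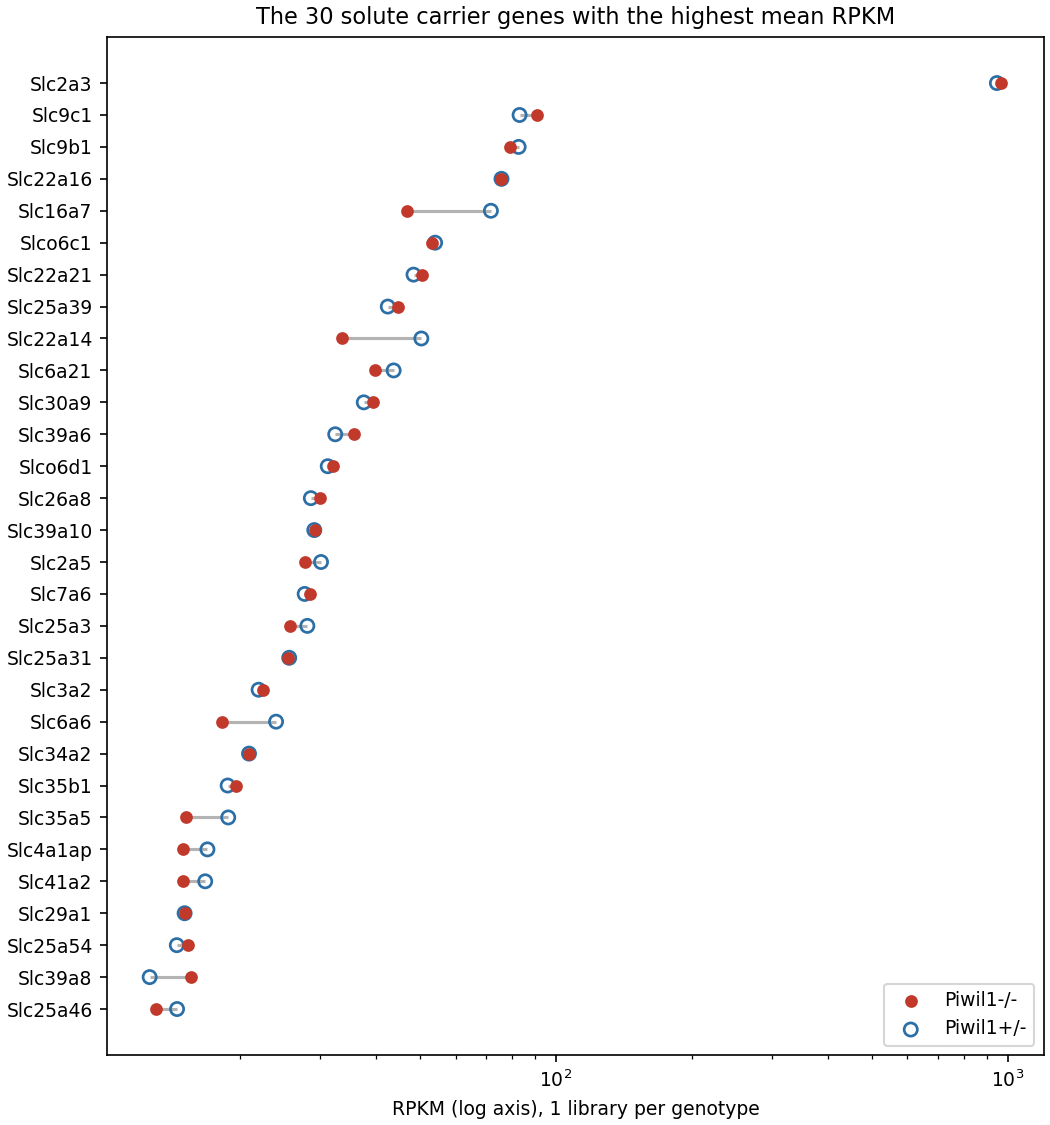
RPKM (log axis) of the 30 members with the highest mean level, with filled points for Piwil1-/- and open points for Piwil1+/-, 1 library each. Slc2a3 stands alone near 967 and 946 RPKM, and the clearest gaps between the genotypes are those of Slc16a7 and Slc22a14.

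Between the genotypes, nearly all members were at similar levels. On the scale of log2 (RPKM + 1), 1 of 155 members was at least 2-fold lower in Piwil1-/- testis, beside 1.96% of all 9951 genes that reached 1 RPKM, and 0 members were at least 2-fold higher, beside 0.231% of those genes. The shares of all genes past 2-fold are those just given, and 99.4% of the members lay within it. Their median log2 ratio, Piwil1-/- minus Piwil1+/-, was 0.04 with quartiles of -0.07 and 0.13, beside a median of 0.01 and quartiles of -0.12 and 0.11 over all genes measured. At 1.5-fold, 4 members were lower, beside 5.21% of all genes, and 3 were higher, beside 1.42%. The lower ones were Slc36a3, Slc5a4b, Slc25a37 and Slc16a7, and the higher ones Slc41a1, Slc35a2 and Slc2a8. Of these, Slc36a3, Slc5a4b and Slc25a37 reached 1 RPKM in Piwil1+/- testis alone and Slc35a2 in Piwil1-/- testis alone, so the rule fixed their directions. The scale understates the change of low genes. As plain ratios of RPKM, Slc5a4b (0.261), Slc25a37 (0.341), Slc35a2 (2.42) and Slc41a1 (2.11) also passed 2-fold. The share of all genes past 2-fold as plain ratios was not counted. The rule itself used these values, so nothing is read from the shares.

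**Figure D2:**
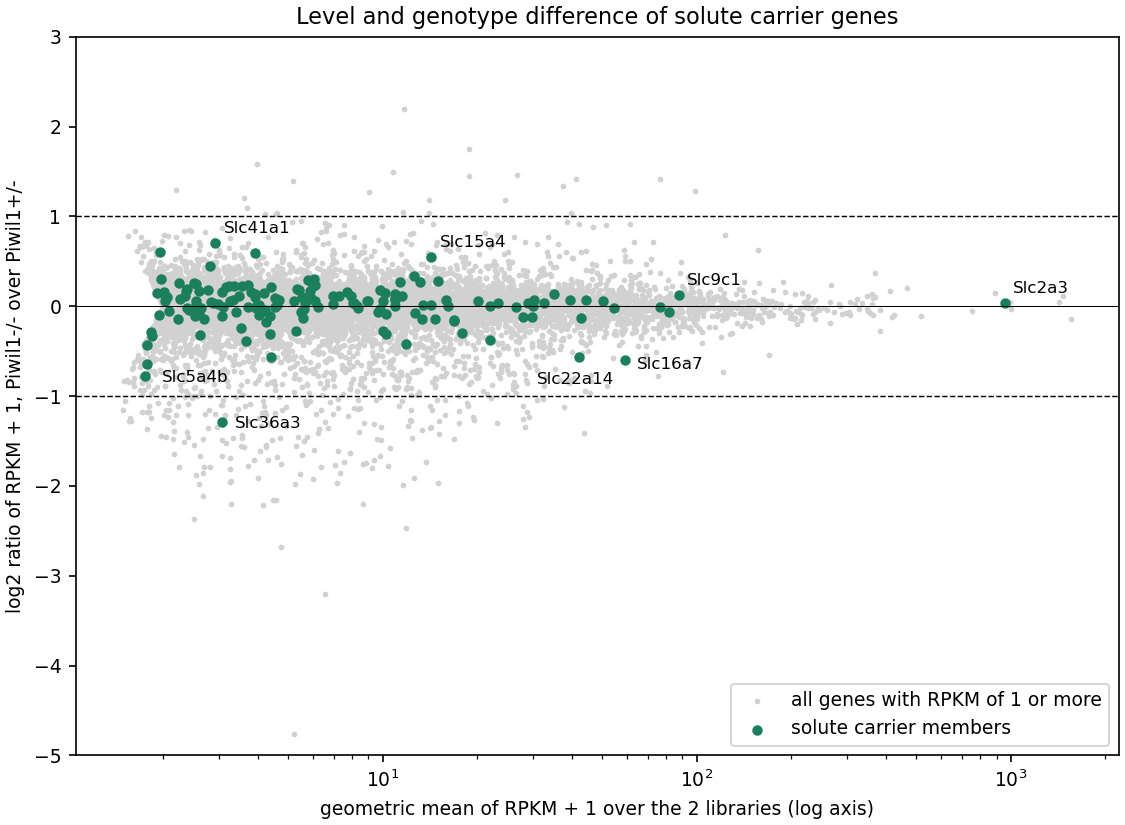
Log2 ratio of RPKM + 1, Piwil1-/- over Piwil1+/-, against the geometric mean of RPKM + 1 (log axis), for the members (green) and all genes with 1 RPKM or more (grey), with dashed lines at 2-fold. Slc36a3 lies past the lower line at -1.29, and Slc2a3 lies at the far right at 0.03.

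The member past 2-fold on the log2 (RPKM + 1) scale was Slc36a3 (chromosome 11, 55124815 to 55151722, mm10). It belongs to the SLC36 family of proton-coupled amino acid transporters and is known for its expression in mouse testis. Its level was 0.977 RPKM in Piwil1-/- testis, against 3.82 RPKM in Piwil1+/- testis. The ratio of RPKM was 0.256 (counting interval 0.169 to 0.376), resting on 33 and 134 reads or more, and the log2 (RPKM + 1) ratio was -1.29. Slc36a4, another SLC36 carrier, was at 5.23 and 4.97 RPKM, with a counting interval of the ratio, 0.933 to 1.19, that includes 1. Slc36a1 and Slc36a2, its neighbours on the chromosome, were under 1 RPKM in both libraries. RefSeq places an antisense gene, Slc36a3os, across the span of Slc36a3. No source used here says whether the authors' counting used strand, and reads of the antisense partner cannot be told apart.

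Among the better expressed carriers, 2 with a known use in sperm were lower in Piwil1-/- testis. Slc16a7 encodes MCT2, the high-affinity monocarboxylate transporter of the sperm tail, and lies on chromosome 10. Its level was 46.9 RPKM in Piwil1-/- testis and 71.7 RPKM in Piwil1+/- testis, with 5624 and 8931 reads or more behind these values and a ratio of 0.653 (interval 0.632 to 0.676). Slc22a14, on chromosome 9, encodes a carrier of the sperm tail that male mice need for fertility. It was at 33.6 RPKM in Piwil1-/- testis and 50.3 RPKM in Piwil1+/- testis, a ratio of 0.669 (interval 0.642 to 0.697). Slc16a1, the more widely used monocarboxylate transporter MCT1, was at 12.5 and 12.3 RPKM, so the level of Slc16a7 was 3.76 times that of Slc16a1 in Piwil1-/- testis and 5.82 times in Piwil1+/- testis.

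The promoters of Slc36a3 and Slc22a14 are shown with those of Slc9c1 and Slc26a8, sperm carriers whose levels were similar in the 2 genotypes, to put the regulatory sequence beside the values. They are RefSeq sequences of GRCm38.p6, from 250 bases before to 50 bases after the annotated start, written 5′ to 3′ on the gene's strand. Their positions are chr11:55151659-55151958 (minus strand), chr9:119190346-119190645 (minus), chr16:45535016-45535315 (plus) and chr17:28689938-28690237 (minus). The Slc26a8 window lies wholly within the RefSeq span of that gene (28637779 to 28691273), so the start used there is an internal one. Capitals mark matches to the motifs searched.
Slc36a3: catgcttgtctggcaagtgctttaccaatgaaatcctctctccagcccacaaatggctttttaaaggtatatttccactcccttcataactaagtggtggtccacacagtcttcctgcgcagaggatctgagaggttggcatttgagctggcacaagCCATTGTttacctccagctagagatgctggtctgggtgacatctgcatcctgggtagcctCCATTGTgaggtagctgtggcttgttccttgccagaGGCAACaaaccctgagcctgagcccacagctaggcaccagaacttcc
Slc22a14: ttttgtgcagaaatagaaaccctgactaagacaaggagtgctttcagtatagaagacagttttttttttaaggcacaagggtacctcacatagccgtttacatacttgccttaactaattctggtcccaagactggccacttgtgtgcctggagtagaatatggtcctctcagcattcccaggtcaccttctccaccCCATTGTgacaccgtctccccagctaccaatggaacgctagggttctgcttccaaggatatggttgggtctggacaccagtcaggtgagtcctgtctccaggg
Slc9c1: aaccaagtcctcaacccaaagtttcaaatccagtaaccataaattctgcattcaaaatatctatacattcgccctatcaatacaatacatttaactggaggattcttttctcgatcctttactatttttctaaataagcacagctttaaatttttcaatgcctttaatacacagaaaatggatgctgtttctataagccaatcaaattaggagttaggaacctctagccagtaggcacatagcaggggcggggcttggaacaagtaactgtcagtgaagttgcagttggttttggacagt
Slc26a8: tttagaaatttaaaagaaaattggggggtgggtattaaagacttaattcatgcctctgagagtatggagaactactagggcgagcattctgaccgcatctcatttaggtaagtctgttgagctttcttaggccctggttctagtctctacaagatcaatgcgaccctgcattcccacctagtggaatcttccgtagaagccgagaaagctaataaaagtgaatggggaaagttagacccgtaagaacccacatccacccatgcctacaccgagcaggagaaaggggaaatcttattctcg

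Of the 5 motifs searched on both strands, the cyclic AMP response element TGACGTCA, its shorter form TGACG, which the full element contains, and the TATA box TATAAA had no match in these 4 windows. The SOX core ACAATGG matched 2 times in Slc36a3 and once in Slc22a14, on the minus strand of the window (CCATTGT as printed). The RFX core GTTGCC matched once in Slc36a3, printed as GGCAAC, and neither motif was found in the windows of Slc9c1 and Slc26a8. The last 2 motifs were chosen after these sequences were read, so no contrast between the 4 windows is drawn from them. The RefSeq table holds 157 promoters for 120 of the members, of 32851 promoters in all. ACAATGG is held by 4 of those of members (2.55%) and by 3.66% of all promoters. GTTGCC is held by 8.92% of the members' promoters and 12.5% of all, and TGACGTCA by 1.91% and 1.79%. TGACG is held by 26.8% of the members' promoters and 20.8% of all, and TATAAA by 7.64% and 13.6%. A match describes letters in the window and is no evidence of binding.

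Carriers with a known use in germ cells spanned a wide range of levels, and most differed little between the genotypes. Of 22 genes listed, 17 were members, and 12 of these were at 10 RPKM or more in both libraries. Their median log2 ratio was 0.02, beside 0.01 over all genes measured. At least 2-fold lower was 1, beside 1.96% of all genes measured, and none was at least 2-fold higher, beside 0.231%. The lower one, Slc36a3, reached 1 RPKM in Piwil1+/- testis alone. Slc25a31, the germ cell ADP/ATP carrier of mitochondria that mouse meiosis requires, was at 25.4 RPKM in Piwil1-/- testis and 25.6 RPKM in Piwil1+/- testis. Slc26a8, an anion transporter of the ring-shaped annulus of the sperm tail, was at 30.1 and 28.6 RPKM. Slc22a21, a carnitine transporter of mouse testis, was at 50.5 and 48.3 RPKM, and Slco6d1, a neighbour of Slco6c1 in its family, at 32.1 and 31.2 RPKM. Near-identical copies in the Slco6 and Slc22 groups may share reads, so their single values are uncertain.

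Slc2a5, the fructose transporter, was at 27.8 RPKM in Piwil1-/- testis, against 30.2 RPKM in Piwil1+/- testis. The germ cell carriers that follow were under 5 RPKM in both libraries. Slc2a8, the glucose transporter GLUT8 of the acrosome region, was at 3.79 and 2.19 RPKM, a ratio of 1.74 (interval 1.59 to 1.89), so it was the germ cell carrier with the highest ratio. Slc9a8, a proton exchanger that mouse spermatids need to form the acrosome, was at 4.72 and 4.01 RPKM. Slc4a2, the bicarbonate exchanger AE2, was at 3.79 and 3.57 RPKM, and Slc6a16, a carrier without a known substrate, at 4.57 and 4.68 RPKM. Of the 5 listed genes that are not members, Slc9b2, Slc10a6, Slc26a3 and Slc26a6 were each under 0.4 RPKM in both libraries, and Slco6b1 was not analysed here.

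**Figure D3:**
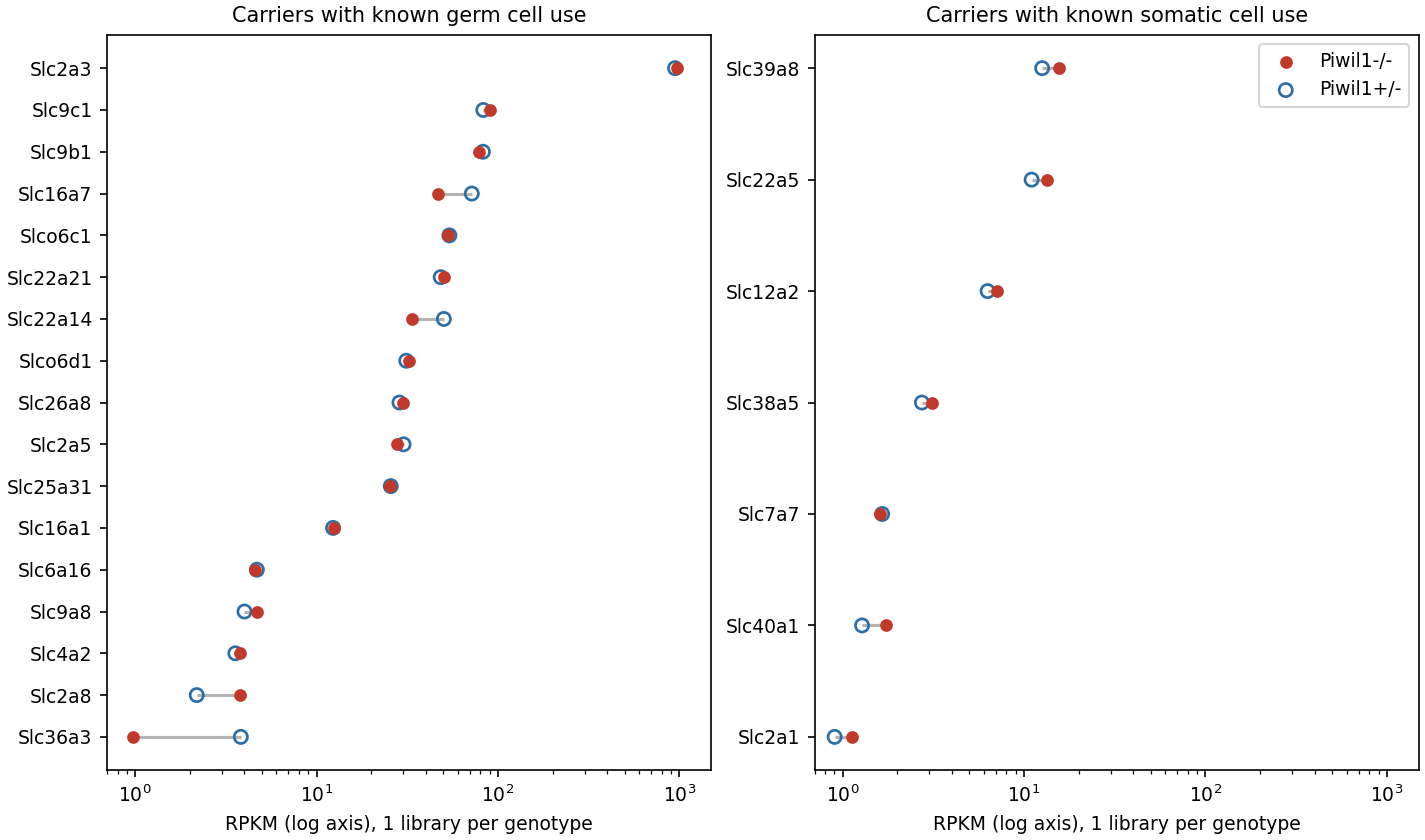
RPKM (log axis) of members with a known use in germ cells (left, 17 genes) and in somatic cells (right, 7 genes), with filled points for Piwil1-/- and open points for Piwil1+/-, 1 library each. Slc36a3, Slc16a7 and Slc22a14 lie lower and Slc2a8 higher in Piwil1-/- testis, and the somatic members lie under 16 RPKM.

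Carriers with a known use in somatic cells were less abundant. Of 14 genes listed, 7 were members. None was at least 2-fold lower, beside 1.96% of all genes measured, or at least 2-fold higher, beside 0.231%. The median log2 ratio of the 7 was 0.16. That median is the value of Slc2a1, which reached 1 RPKM in Piwil1-/- testis alone, at 1.13 against 0.904 RPKM. The rule thus fixed its ratio above 0. The log2 ratio was above 0 for 6 of the 7, beside 95 of the 155 members and 5092 of all 9951 genes measured. The other one was Slc7a7, a cationic amino acid exchanger, at 1.61 and 1.65 RPKM. Slc39a8, the zinc and cadmium transporter ZIP8, was at 15.5 RPKM in Piwil1-/- testis and 12.6 RPKM in Piwil1+/- testis. Slc22a5, the carnitine transporter OCTN2, was at 13.5 and 11.01 RPKM, and Slc12a2, the sodium-potassium-chloride cotransporter NKCC1, at 7.14 and 6.30 RPKM. Slc40a1, the iron exporter ferroportin of macrophages, was at 1.74 and 1.28 RPKM, and Slc38a5, a glutamine transporter, at 3.09 and 2.74 RPKM. The 4 Sertoli cell markers measured had a median log2 ratio of 0.07, and the 5 Leydig cell markers one of -0.16; their part in these values was not tested. Slc16a3, the lactate exporter MCT4 of Sertoli cells, did not pass the rule, at 0.730 and 0.557 RPKM. Slc4a1, the anion exchanger of red blood cells, and Slc11a1 of macrophages were near 0 in both libraries.

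Most germ cell carriers had higher ratios than the spermatid markers. The 6 round spermatid markers had log2 ratios from -1.50 to -0.51 with a median of -0.66, and their summed RPKM was 83.9 in Piwil1-/- and 142.6 in Piwil1+/- testis. The 5 elongating spermatid markers measured, of 7 listed, had a median of -1.41, and their list summed to 38.8 and 124.2 RPKM. Prm1, Prm2 and Tnp1 were listed at 0 in Piwil1-/- testis and were low in Piwil1+/- testis too, at 0.0616, 1.42 and 0.458 RPKM. Meiotic prophase markers had a median of 0.12 over 6 genes. Slc16a7 and Slc22a14, at -0.60 and -0.57, lay within the range of the round spermatid markers, and Slc36a3 at -1.29 lay within that of the elongating spermatid markers as well. The other 14 germ cell carriers measured lay between -0.12 and 0.59. The part of a lower spermatid content in the lower carriers was not tested.

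**Figure D4:**
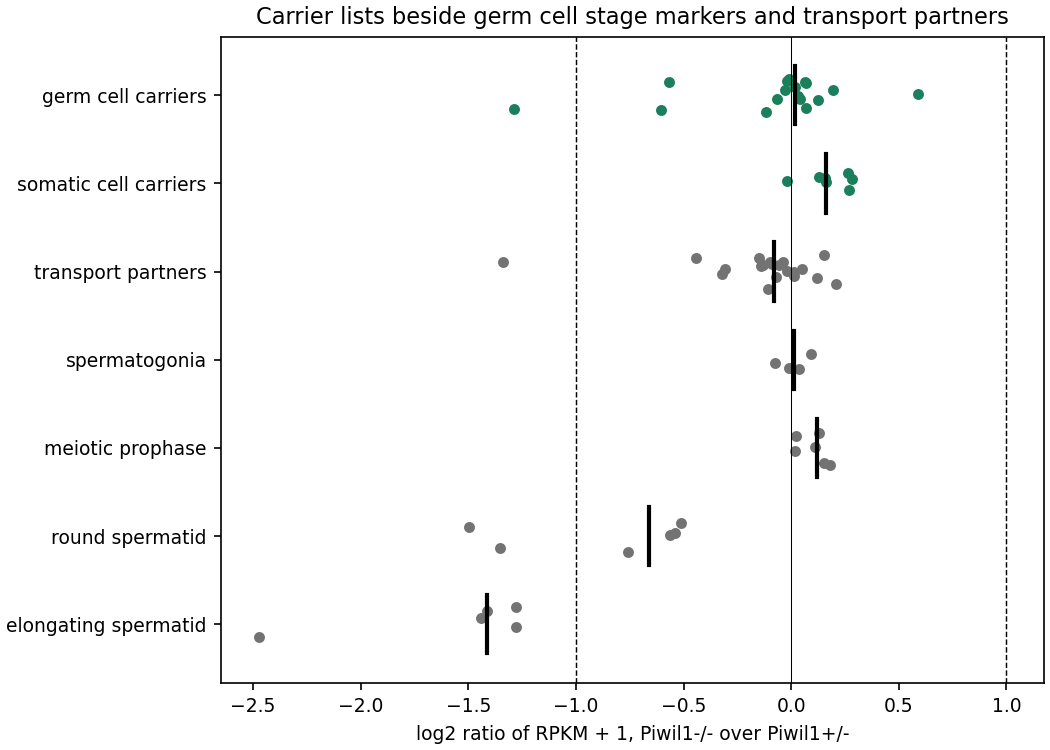
Log2 ratio of RPKM + 1, Piwil1-/- over Piwil1+/-, of carriers by known use (green) beside transport partners and germ cell stage markers (grey), each point a gene and each bar the median of its list, with dashed lines at 2-fold. The median is 0.02 for germ cell carriers, 0.16 for somatic cell carriers, -0.66 for round and -1.41 for elongating spermatid markers.

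Genes that work with these carriers were taken from a list of 24, of which 20 were measured. Their median log2 ratio was -0.08, with 1 at least 2-fold lower, beside 1.96% of all genes measured, and none at least 2-fold higher, beside 0.231%. The lower one was Atp1a4, the sperm sodium pump that sets the sodium gradient used by sodium-proton exchangers, at 7.94 RPKM in Piwil1-/- testis, against 21.6 RPKM in Piwil1+/- testis (log2 ratio -1.34). Adcy10, the bicarbonate-sensitive adenylyl cyclase of sperm, was at 54.9 and 75.02 RPKM (log2 ratio -0.44), while the exchanger Slc9c1 stood at 0.12. Bsg, the basigin chaperone of monocarboxylate transporters, was at 58.6 and 62.5 RPKM, and Emb, the related chaperone embigin, had a log2 ratio of 0.12. Ldhc, the germ cell lactate dehydrogenase, was the highest of the list, at 1479 RPKM in Piwil1-/- and 1638 RPKM in Piwil1+/- testis.

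By substrate, the median log2 ratios of the 10 transport classes lay between 0.01 and 0.07. The mitochondrial SLC25 carriers, which exchange nucleotides, phosphate and metabolites across the inner mitochondrial membrane, were the largest family with 33 of 47 genes measured and a median of 0.07. Slc25a39, needed for glutathione in mitochondria, was the highest, at 44.7 RPKM in Piwil1-/- testis and 42.4 RPKM in Piwil1+/- testis. Slc25a3, the phosphate carrier, was at 25.8 and 28.1 RPKM. Of the ADP/ATP carriers, Slc25a31 stood 3.52 times above the muscle form Slc25a4 in Piwil1-/- testis and 3.66 times in Piwil1+/- testis. It stood 1.91 and 1.95 times above the general form Slc25a5.

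In the SLC25 family the lowest ratio was that of Slc25a37, mitoferrin 1, the iron importer of mitochondria in developing red blood cells. Its level was 0.417 RPKM in Piwil1-/- testis and 1.22 RPKM in Piwil1+/- testis, a ratio of 0.341 (interval 0.261 to 0.443). The 5 red blood cell markers summed to 7.30 RPKM in Piwil1-/- and 10.5 RPKM in Piwil1+/- testis. Of the 3 measured, none was at least 2-fold lower, beside 1.96% of all genes measured, or higher, beside 0.231%. The beta globin genes Hbb-bs and Hbb-bt had log2 ratios of -0.60 and -0.41, and Alas2, the heme synthesis enzyme of red blood cells, one of -0.18. The alpha globin genes Hba-a1, at 0.349 and 0.359 RPKM, and Hba-a2, at 0.372 and 0.381 RPKM, were nearly level and did not reach 1 RPKM. Their part in the result was not tested. The highest ratios of the family were those of Slc25a11, the oxoglutarate carrier, at 5.72 and 4.46 RPKM, and Slc25a30 at 5.40 and 4.23 RPKM.

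**Figure D5:**
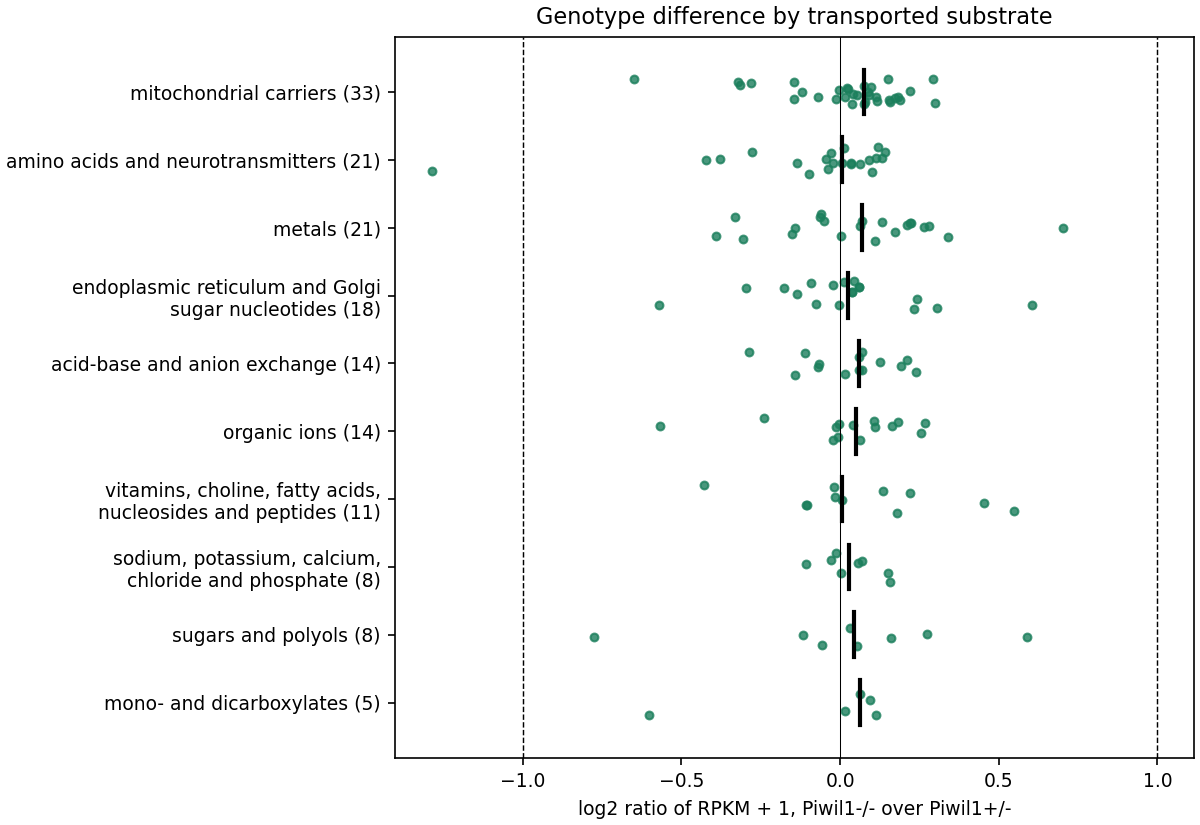
Log2 ratio of RPKM + 1, Piwil1-/- over Piwil1+/-, of each member by transport class, with the number of members in parentheses, black bars for class medians and dashed lines at 2-fold. The 2 members that are not carriers are left out. Class medians run from 0.01 to 0.07, and Slc36a3 of the amino acid class is the point past the lower line.

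Amino acid carriers had 21 of 77 genes measured and a median of 0.01. Their highest member was Slc6a21, an orphan of the neurotransmitter transporter family, at 39.7 RPKM in Piwil1-/- testis and 43.7 RPKM in Piwil1+/- testis. Slc6a6, the taurine transporter, was at 18.2 and 24.0 RPKM (ratio 0.760), and Slc38a9, which signals lysosomal amino acids to mTORC1, at 9.23 and 12.7 RPKM (ratio 0.726). The 4 SLC6 members measured had a ratio below 1, as had 60 of the 155 members and 4859 of all 9951 genes measured. For Slc6a16 and Slc6a14 the counting intervals, 0.893 to 1.07 and 0.813 to 1.02, included 1. Slc7a6, a cationic amino acid exchanger, was at 28.5 and 27.8 RPKM, and Slc3a2, the heavy chain that brings such exchangers to the membrane, at 22.5 and 21.9 RPKM.

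Metal transporters had 21 of 32 genes measured and a median of 0.07. Slc30a9, a zinc transporter of mitochondria, led at 39.4 RPKM in Piwil1-/- testis and 37.5 RPKM in Piwil1+/- testis, followed by the zinc importers Slc39a6 at 35.6 and 32.4 RPKM and Slc39a10 at 29.2 and 29.1 RPKM. The highest log2 (RPKM + 1) ratio of all members was that of Slc41a1, a magnesium transporter, at 2.74 RPKM in Piwil1-/- testis and 1.299 RPKM in Piwil1+/- testis. Its log2 (RPKM + 1) ratio was 0.70 and its ratio of RPKM 2.11 (interval 1.78 to 2.50), which was below that of Slc35a2. Slc11a2, the iron transporter DMT1, was at 13.2 and 10.2 RPKM (ratio 1.29), and Slc30a4, a zinc transporter, at 2.20 and 3.19 RPKM (ratio 0.689).

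Carriers of the endoplasmic reticulum and Golgi, mostly SLC35 transporters that bring sugar nucleotides to the glycosylation enzymes, had 18 of 32 genes measured and a median of 0.03. Slc35b1, which brings ATP into the endoplasmic reticulum, was highest by mean level, at 19.6 RPKM in Piwil1-/- testis and 18.7 RPKM in Piwil1+/- testis. Slc35a5, of the same family, was at 15.1 and 18.8 RPKM. The class held both directions: Slc35a2, the UDP-galactose transporter, was at 1.41 and 0.581 RPKM (ratio 2.42, interval 2.18 to 2.70), and Slc35g3, a less studied relative, at 2.61 and 4.36 RPKM (ratio 0.599, interval 0.516 to 0.694). Slc35d1, a transporter of UDP-glucuronic acid, was at 1.18 and 0.766 RPKM. Slc35a2 and Slc35d1 passed the 1 RPKM line in Piwil1-/- testis alone.

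Acid-base and anion exchangers had 14 of 35 genes measured and a median of 0.06, with Slc9c1 highest. Organic ion carriers had 14 of 49 measured and a median of 0.05, with Slc22a16 highest and Slc22a14 lowest in ratio. Ion carriers for sodium, potassium, calcium, chloride and phosphate had 8 of 23 measured and a median of 0.03, led by the phosphate transporter Slc34a2 at 20.9 RPKM in both libraries. Carriers of vitamins, choline, fatty acids, nucleosides and peptides had 11 of 38 measured and a median of 0.01, with the nucleoside transporter Slc29a1 highest by mean level at 15.1 and 15.05 RPKM. Above it in Piwil1-/- testis alone, Slc15a4, a lysosomal histidine and peptide transporter, was at 16.3 RPKM in Piwil1-/- testis and 10.8 RPKM in Piwil1+/- testis (ratio 1.505, interval 1.45 to 1.56). Slc27a1, a fatty acid transport protein, was at 2.31 and 1.42 RPKM (ratio 1.63), and Slc29a3, a lysosomal nucleoside transporter, at 0.534 and 1.06 RPKM (ratio 0.502, interval 0.252 to 0.958). Slc29a3 reached 1 RPKM in Piwil1+/- testis alone, so the rule fixed its direction.

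Sugar carriers had 8 of 29 genes measured. Slc5a4b, of the sodium-glucose cotransporter family, was at 0.337 RPKM in Piwil1-/- testis and 1.29 RPKM in Piwil1+/- testis, a ratio of 0.261 (interval 0.197 to 0.343). This ratio is close to that of Slc36a3, but its log2 (RPKM + 1) ratio was -0.78 because of its low level. Slc5a3, the myo-inositol transporter, was at 11.4 and 9.29 RPKM (ratio 1.23). Mono- and dicarboxylate carriers had 5 of 19 genes measured, with Slc16a7 highest, and Slc13a5, the citrate transporter, at 10.1 and 9.66 RPKM.

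The X chromosome is known to be transcriptionally silenced in spermatocytes. Of its genes, 7 of 13 Slc genes in the table were members, against 148 of the 373 others. The median member level was 2.50 RPKM for X-linked and 4.65 RPKM for autosomal members in Piwil1-/- testis, and 2.01 and 4.41 RPKM in Piwil1+/- testis. Over all 361 X-linked genes measured, the median level was 2.59 RPKM in Piwil1-/- and 2.68 RPKM in Piwil1+/- testis. Over all 9626 genes measured with a RefSeq chromosome, it was 6.39 and 6.63 RPKM. The part of X silencing in these levels was not tested. The highest X-linked member was Slc25a5, at 13.3 and 13.2 RPKM. Of the 7, 6 had a log2 ratio above 0, beside 193 of all 361 X-linked genes measured. Their median was 0.16, beside 0.04 for the autosomal members and 0.01 for those 361 genes. With 7 genes these medians are a description. Slc35a2, 1 of the 6 above 0, reached 1 RPKM in Piwil1-/- testis alone, so the rule fixed its direction.

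At the edge of the rule, the members just inside included Slc52a2, a riboflavin transporter, at 0.877 RPKM in Piwil1-/- testis and 1.02 RPKM in Piwil1+/- testis, and Slc25a32 at 1.02 and 0.819 RPKM. Just outside were Slc39a11 at 0.975 and 0.806 RPKM, Slc39a12 at 0.746 and 0.963 RPKM and Slc44a5 at 0.5004 and 0.938 RPKM. Of the 231 genes outside, 36 were listed at 0 in both libraries. Slc4a1ap and Slc7a6os are members by their names only, since they are named after a carrier and are not carriers. The spans of 61 members overlap another RefSeq gene.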

How the data were processed

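Testis RNA depleted of ribosomal RNA was made into directional TruSeq libraries, per the labels' protocols. The authors deposited RPKM values per gene identifier, per the file headers. Bowtie, STAR and mm10 are named in the submitters' processing notes without their roles; no source used here gives the counter, the annotation or whether strand was used. Symbols were found for 22444 of 22808 identifiers, and coordinates and promoters are RefSeq's of GRCm38.p6. Log2 ratios are differences of log2 (RPKM + 1) over the 9951 genes that reached 1 RPKM in at least a single library. No p-value is given, because each genotype has 1 library and differences between animals were not measured.

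Library totals were read from 106 genes with a RefSeq span of up to 1500 bases, and the smallest whole reads that fit both values were found for 99.6% of 16558 genes and all 155 members. Exact binomial intervals at 95% use these reads. Fewer reads than the true number make them wider, PCR copies too narrow. For some members the fitted gene length exceeded the RefSeq span, as for Slc10a3 (5601 against 4133 bases) and Slc25a39 (6261 against 5707 bases). The annotation behind the RPKM values is not known, so reads of such members may be too many and their intervals too narrow. The recovery was tested on simulated data. Python 3.11.15, numpy 2.4.6, pandas 2.3.3, scipy 1.17.1 and matplotlib 3.10.9 were used.

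Members and lists were chosen with earlier results of these data known. Genes named are the 10 members of highest mean level, the 10 lowest and 10 highest ratios, members past 2-fold, members of the germ and somatic lists, the highest of each class and those at the edge of the rule; further carriers of a class and the promoter motifs were added after their values were seen. A member that this rule names is not reported here. Pseudocounts, filters and rescalings were varied.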

Additional observations from a re-analysis of the deposited data

How the results depend on the processing

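With a pseudocount of 0.1 RPKM, 3 members were at least 2-fold lower in Piwil1-/- testis (Slc36a3, Slc5a4b and Slc25a37) and 2 at least 2-fold higher (Slc35a2 and Slc41a1), and the median of the somatic cell carriers was 0.29. With 0.5 RPKM, 2 were lower, Slc36a3 and Slc5a4b. At 1.5-fold, 4 were lower, beside 5.21% of all genes measured, and 3 higher, beside 1.42%. Under the other settings the shares over all genes were not counted, so nothing is read from those counts. With a minimum of 5 RPKM, 0 of 71 members were lower, since Slc36a3 lies under it, and with no minimum the median of 350 genes was 0.0059. Among the 94 members whose span overlaps no other gene, a choice made after seeing the data, 0 were at least 2-fold lower, again because Slc36a3 is left out. Trimmed-mean and median rescaling shifted log2 ratios by at most 0.0086 and 0.0055 and left both counts as they were; the sign was kept by 48 and 49 of 50 named carriers. No paired analysis was possible because each genotype has a single library, and for the same reason no library could be left out. Some ratios rest on few reads, at least 15 for Slc29a3 and at least 26 for Slc25a10, whose counting interval was 0.658 to 2.05.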
